A study of Mus musculus with 8 samples.

Results

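The genes described here encode the translation initiation and elongation factors, the soluble proteins that start protein synthesis on an mRNA and carry it forward. They were taken from the deposited count table as every gene whose symbol begins with Eif or Eef followed by a digit, without names ending in -ps (none occurred) and without Eif2s3x and Eif2s3y. This gave 68 of 35583 genes, 54 Eif genes and 14 Eef genes. The RNA came from microglia, the resident macrophages of the brain, which had been sorted from hypothalami of wild-type mice described as young. All mice had received an injection of plasma protein coupled to a dye 20 hours earlier, so both groups come from injected mice. The titles place 4 libraries in a plasma-positive group, microglia with the labelled protein, and 4 in a plasma-negative group, microglia without it, and the comparison asks how these cells differ. The labels do not describe the sorting gate, the sex or exact age of the mice, or whether animals were pooled, nor which library came from which animal. P-values therefore measure only the spread between these libraries, which may be technical.

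Initiation begins when eIF2 brings the initiator tRNA to the small ribosomal subunit, on which eIF1, eIF1A and the large eIF3 complex hold the machinery open for scanning. The cap-binding eIF4E, the scaffold eIF4G and the helicase eIF4A load it on the mRNA, and eIF5 and eIF5B complete the choice of start codon and the joining of the subunits. In elongation, eEF1A delivers aminoacyl-tRNAs, the eEF1B subunits recharge it with GTP, eEF2 moves the ribosome by a codon, and eIF5A helps at slow peptide bonds. Cells turn the process down through kinases that phosphorylate eIF2 or eEF2 and through proteins that sequester eIF4E. In brain, faults in the subunits of eIF2B, which recharges eIF2, are known to cause a disease of the white matter. Many mRNAs of elongation factors and ribosomal proteins share a start made of pyrimidines (a TOP sequence) through which mTORC1 signalling sets their translation.

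The sequences around the transcription starts are shown because several of the factors described below share short elements there. RefSeq promoters (build GRCm38.p6, 250 bases before to 50 bases after each annotated start) were matched by symbol for 51 of the 67 protein-coding members. A canonical E-box, CACGTG, a palindrome that reads alike on both strands and is bound by factors of the MYC and USF families, lay in the window of 14 of these 51 genes (27.5%), against 12% of the 8746 tested protein-coding genes with a window. With only the first listed start per gene, the shares were 23.5% and 10.5%. The 14 tested genes with the E-box had a median log2 change of 0.37 and the 36 without it 0.12, a comparison made after the values were seen and not tested. With a correction of each library for exon length and GC content these medians were 0.20 and 0.08. Eef1a1, Eif3b, Eif1ad, Eif1ax, Eif2a and Eif2ak3, which also lay higher in every plasma-positive library, had no E-box in their windows. The following stretches are printed 5′ to 3′ on the strand of the gene, with the E-box in capitals. They come from 3 factors whose levels lay higher in every plasma-positive library and from 2 whose levels did not.
Eef2 (chr10:81176576-81176605, + strand): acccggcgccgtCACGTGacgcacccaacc
Eif5a (chr11:69921443-69921472, - strand): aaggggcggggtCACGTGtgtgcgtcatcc
Eif4h (chr5:134639488-134639517, - strand): cggccgccgcacCACGTGggccgcagagcg
Eef2k (chr7:120842788-120842817, + strand): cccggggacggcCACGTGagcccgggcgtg
Eif4g1 (chr16:20672661-20672690, + strand): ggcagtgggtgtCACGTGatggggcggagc

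A run of C followed by at least 7 further C or T, the letters of a TOP start, was searched on the strand of the gene from 20 bases before to 50 bases after the annotated start. It occurred in 15 of the 51 matched genes (29.4%) and in 23.1% of the tested protein-coding genes, and in 5 of the 10 matched Eef genes against 10 of the 41 Eif genes (24.4%). Of those 5 Eef genes, Eef1a1 and Eef1a2 are elongation factors and Eef2k, Eef1akmt2 and Eef1akmt4 encode modifying enzymes, while Eef2 and Eef1b2 had no such run in their windows. The stretches below are those of Eef1a1, the most abundant factor, and of 3 eIF3 subunits, with the runs in capitals.
Eef1a1 (chr9:78481720-78481749, - strand): ggtgtcgtgtgctggctccgCCCTCTTCCC
Eif3f (chr7:108934403-108934432, + strand): gttctaggCTCTCTCTCTTTCTCggcaaga
Eif3k (chr7:28981854-28981883, - strand): tgaaagcgCCTTTCCCTTTgCCTTCCTTgt
Eif3l (chr15:79075210-79075239, + strand): gcggagttCTTCTTCCgCTCTCTCCCacgg
Other elements searched on both strands were near the share of all genes or differed in either direction. The ETS element CCGGAAG occurred in 33.3% of the members against 21.8%, CCAAT in 35.3% against 43.1% and TATAAA in 7.84% against 8.16%. These are matches of letters in annotated windows, and neither binding nor translation was measured.

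The 8 libraries held between 2963094 and 21422738 counts, and plasma-negative replicate 4 was the smallest. The summed level of 10 microglial marker genes was 61700 to 72600 CPM (the count per library size, scaled with edgeR's TMM factors) in plasma-negative and 68200 to 73100 CPM in plasma-positive libraries, so microglial markers were abundant in all 8 libraries. Markers of other cells had lower sums, and some differed between the groups. The summed level of 6 monocyte and neutrophil markers was 90.8 to 161 CPM in plasma-negative and 240 to 752 CPM in plasma-positive libraries. In all libraries but plasma-positive replicate 3 most of it was Lyz2, at 90.5 to 147 and 240 to 344 CPM over the 2 groups, which edgeR called higher. Plasma-positive replicate 3, with Lyz2 at 279 CPM, stood apart with the neutrophil genes S100a8 at 300 CPM and S100a9 at 171 CPM, which were at or below 0.336 CPM in the 7 other libraries. The 7 endothelial markers summed to 630 to 683 and 695 to 792 CPM, of which Bsg, a gene that many cell types express, made up 603 to 653 and 649 to 733 CPM. Pecam1 was at 18.2 to 36.7 and 14.1 to 55.8 CPM, and Cldn5, Flt1, Ly6c1, Slco1a4 and Cdh5 were each at or below 4.63 CPM. The 9 oligodendrocyte markers summed to 163 to 230 and 222 to 537 CPM, the 7 astrocyte markers to 214 to 327 and 208 to 298 CPM, and the 10 neuronal markers to 6.73 to 41.4 and 5.70 to 394 CPM. Most of the astrocyte sum was Slc1a3, at 196 to 317 and 164 to 197 CPM. Plasma-positive replicate 2 had the highest oligodendrocyte and neuronal sums, 537 and 394 CPM. Its astrocyte genes Slc1a2 and Aldoc were at 67.5 and 42.0 CPM, against at most 19.4 and 10.9 CPM in any other library. Border macrophage markers stayed at or below 3.61 and 16.1 CPM with Cd163, Lyve1 and F13a1 at 0, and lymphocyte markers at or below 0.0886 and 0.711 CPM with Cd3e and Cd3g at 0. The part of these other cells in the results below was not tested, and in bulk libraries a change in the make-up of the cells and a change in RNA per cell cannot be told apart.

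Of the 68 factors, 63 had enough reads to be tested (51 Eif and 12 Eef genes), and edgeR's quasi-likelihood test called 3 of them at a Benjamini-Hochberg adjusted p under 0.05 across all 13277 tested genes. All 3, Eef1a1, Eef2 and Eif3b, were higher in plasma-positive microglia, and none was called lower (1 lower at an unadjusted p under 0.05). Over all tested genes 1.41% were called, 0.844% higher and 0.565% lower. DESeq2, which called 6.43% of the genes it tested, called 6 members, these 3 with Eef1d, Eif4h and Eif5a, all of them higher as well. At an unadjusted p under 0.05 there were 15 higher and 1 lower among the 63, beside 7.13% and 6.67% of all tested genes. In 10 of the 63, all 4 plasma-positive libraries lay above all 4 plasma-negative libraries, which held for 5.68% of all tested genes, and in 0 of the 63 did they lie below, which held for 4.59%.

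Small differences in the same direction were common. The log2 change (plasma-positive minus plasma-negative) lay above 0 in 47 of the 63 factors (74.6%), against 50.4% of all tested genes. Its median was 0.26 for the 51 Eif genes (40 above 0), 0.20 for the 12 Eef genes (7 above 0) and 0.01 for all tested genes. Together the 68 genes took 0.630% to 0.650% of the counts in plasma-negative libraries and 0.707% to 0.748% in plasma-positive libraries, ranges that did not overlap. With a correction of each library for exon length and GC content, the medians were 0.14 and 0.11, against -0.05 for all genes, and 42 of the 63 lay above 0. With library totals in place of TMM factors, which moves the median of all genes to -0.11, the medians were 0.14 and 0.09 and 37 of the 63 lay above 0.

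**Figure D1:**
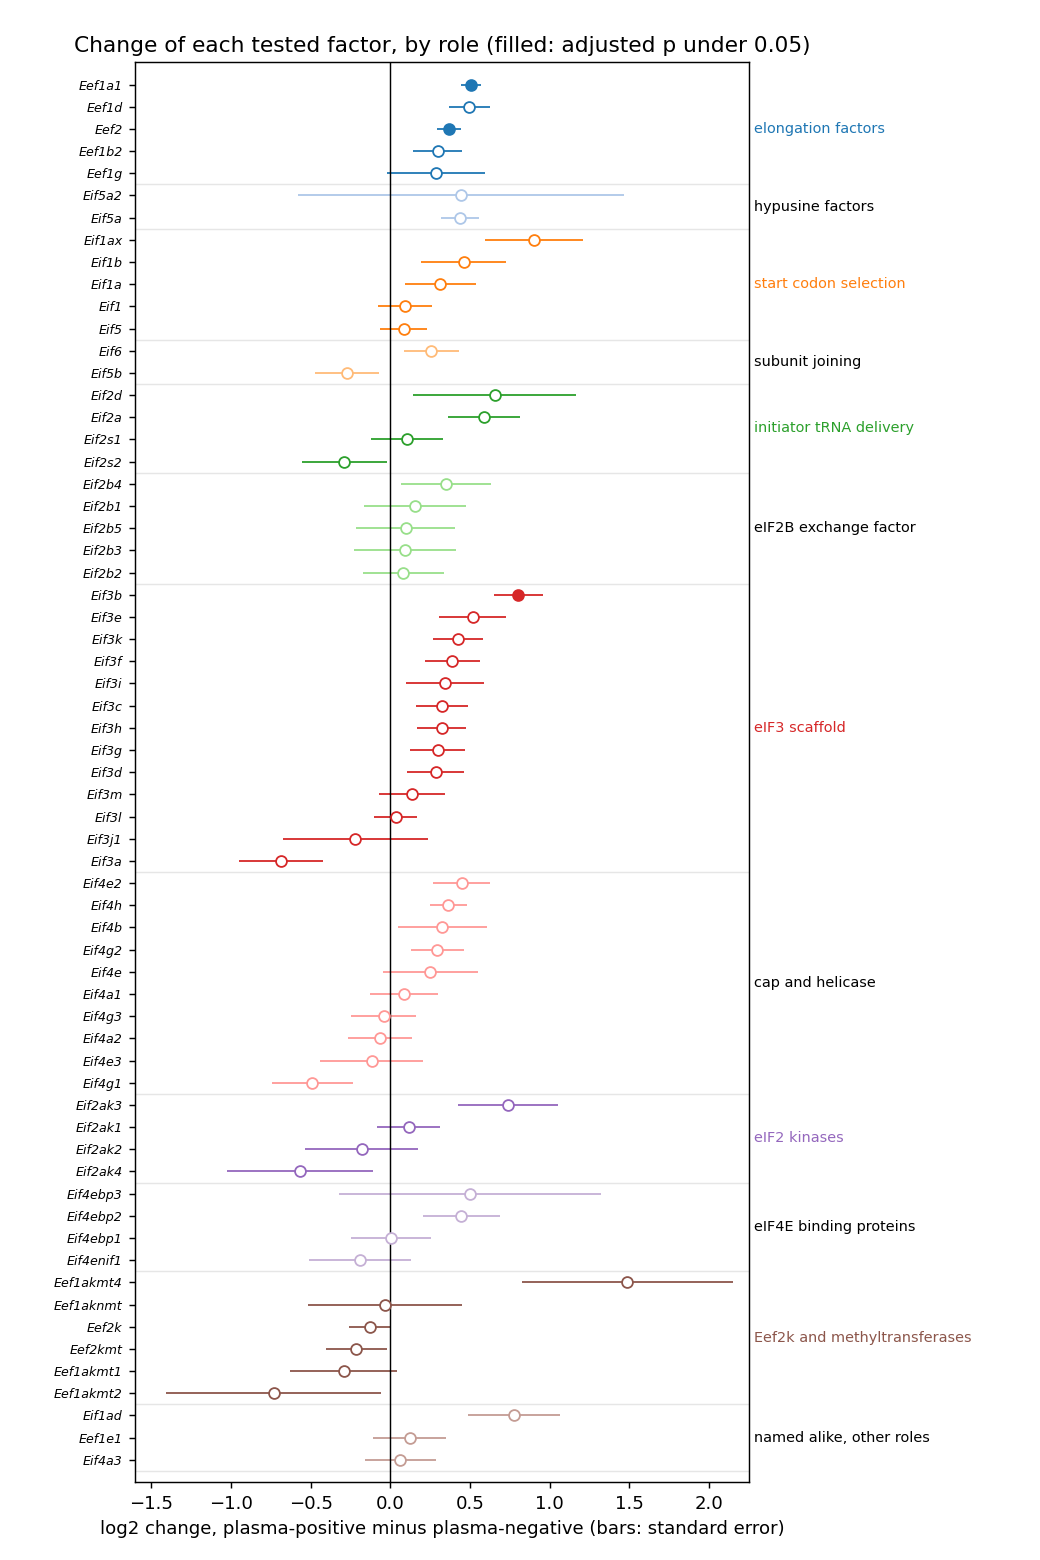
The plot gives each tested factor's log2 change in CPM, plasma-positive minus plasma-negative, on the x axis, with a bar of 1 standard error to each side, and the genes on the y axis grouped by role. Filled points (Eef1a1, Eef2 and Eif3b) had an adjusted p under 0.05. The 7 elongation and hypusine factors all lie to the right of 0, while 5 of the 6 tested eEF2 kinase and methyltransferase genes lie to the left.

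Eef1a1 had the smallest p-value of all the factors. Eef1a1 (ENSMUSG00000037742, chromosome 9, 78478449 to 78489151, minus strand) encodes the main eEF1A, which delivers aminoacyl-tRNA to the ribosome. Its level was 1240, 1210, 1210 and 1370 CPM in plasma-negative replicates 1 to 4 and 1850, 1750, 1700 and 1850 CPM in plasma-positive replicates 1 to 4. Every plasma-positive library lay above every plasma-negative one, and the spread within each group was small beside the gap. The mean rose 1.42-fold, from 1260 ± 72.7 CPM to 1790 ± 74.7 CPM (SD, n = 4), or by 0.51 on the log2 scale (SE 0.06; edgeR, adjusted p = 0.00458). Per kilobase of exon this was 504 against 717 CPM, which made it the most abundant of the factors and number 48 among all tested genes. It remained called without any 1 of the 8 libraries (edgeR, adjusted p between 0.00207 and 0.0237, and 0.00989 without plasma-positive replicate 3) and with the length and GC correction, where its change was 0.33 (edgeR, adjusted p = 0.0284). The call was lost when that correction was combined with the replicate number as a block (edgeR, adjusted p = 0.0892). Eef1a1 has many processed copies in the genome, and how reads that match several places were shared out is not given in the sources used here.

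Eef2 (ENSMUSG00000034994, chromosome 10, 81176631 to 81182498, plus strand), the translocase that moves the ribosome along the mRNA, was the second most abundant factor with 222 ± 15.5 and 287 ± 14.4 CPM per kilobase. Its level was 728, 685, 809 and 735 CPM in the plasma-negative and 890, 1000, 976 and 950 CPM in the plasma-positive libraries, again without overlap. Its mean of 739 ± 51.6 CPM rose to 955 ± 47.9 CPM (SD, n = 4), which is 0.37 on the log2 scale (SE 0.08; edgeR, adjusted p = 0.0393). This call was a narrow one. It was lost whichever library was left out, with adjusted p between 0.055 and 0.116 in the 8 edgeR fits, and its change with the length and GC correction was 0.20 (edgeR, adjusted p = 0.383).

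The exchange factor that recharges eEF1A has 3 main subunits, and edgeR called none of them, while DESeq2 called 1, Eef1d (adjusted p = 0.000721). Eef1d, the delta subunit, stood closest to the threshold, with 100, 99.8, 88.0 and 101 CPM in plasma-negative and 133, 132, 142 and 142 CPM in plasma-positive libraries. Its groups did not overlap, and the log2 change was 0.50 (SE 0.13; edgeR, adjusted p = 0.0847). Eef1b2, the beta subunit with the exchange activity, was at 121 ± 24.3 and 148 ± 8.26 CPM (SD, n = 4; edgeR, adjusted p = 0.432), and plasma-negative replicate 4 reached 155 CPM, within the plasma-positive range. Eef1g, the gamma subunit, was at 20.1 ± 2.74 and 24.5 ± 6.69 CPM (edgeR, adjusted p = 0.756).

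Eif5a and Eif5a2 carry an initiation factor's name but are grouped here with elongation, where their hypusine-modified proteins act. Eif5a, the third most abundant of the factors per kilobase (87.3 and 118 CPM), had 166, 212, 223 and 228 CPM in plasma-negative and 279, 272, 294 and 278 CPM in plasma-positive libraries. The groups did not overlap, but plasma-negative replicate 1 was well below the others, and the log2 change of 0.44 did not pass the test (SE 0.12; edgeR, adjusted p = 0.105). DESeq2 and limma on the deposited RPKM values did call it, with adjusted p of 0.0162, 0.0235 (pseudocount 1) and 0.0253 (pseudocount 0.1). With the length and GC correction the change was 0.20 (edgeR, adjusted p = 0.592). Its paralog Eif5a2 was expressed at a low level, with 2.55 ± 2.02 and 3.48 ± 2.20 CPM (SD, n = 4; edgeR, adjusted p = 0.91).

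Eef1a2, the eEF1A form of neurons and muscle, was not tested for lack of reads. It had 0, 1, 0 and 0 counts in plasma-negative libraries, under the floor of 3 counts taken for detection, and 4, 15, 1 and 10 counts in plasma-positive libraries. In plasma-positive replicates 1 to 4 its level was 0.44, 0.763, 0.0508 and 1.12 CPM, beside summed neuronal markers of 105, 394, 10.9 and 5.70 CPM. The highest Eef1a2 level was in replicate 4, where the neuronal sum was lowest, and the largest count, 15, in replicate 2, where that sum was highest. Replicate 3, with 1 count, was also under the floor, and counts this small cannot order the libraries. The part of other cells in these few reads was not tested.

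**Figure D2:**
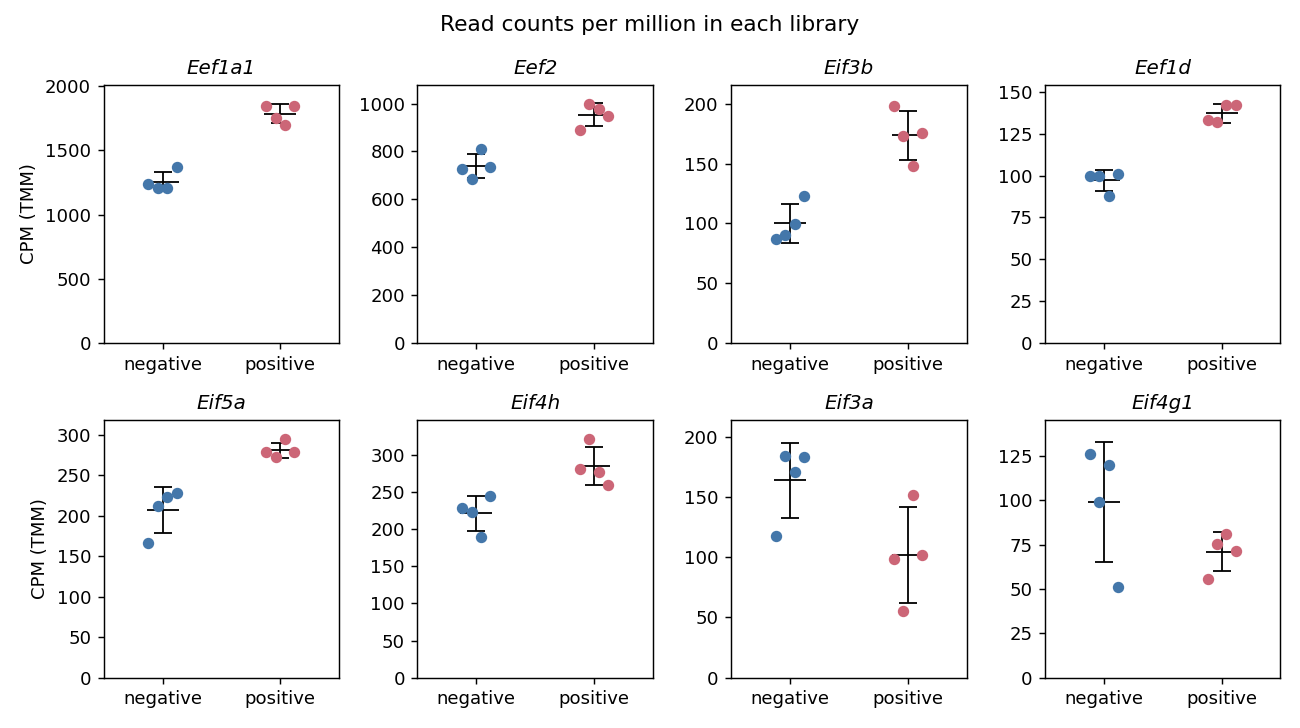
The panels give CPM (y axis, from 0) of 8 factors in each of the 4 plasma-negative and 4 plasma-positive libraries, with the mean and SD as bars. Eef1a1, Eef2, Eif3b, Eef1d, Eif5a and Eif4h do not overlap between the groups, while Eif3a and Eif4g1 do.

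Genes for the proteins that modify elongation factors held no call, and 5 of the 6 tested had a log2 change below 0 (4 with the length and GC correction). Eef2k, the kinase that halts eEF2, had 160, 130, 169 and 146 CPM in plasma-negative and 155, 132, 129 and 137 CPM in plasma-positive libraries, overlapping groups with a log2 change of -0.13 (edgeR, adjusted p = 0.747). Eef2kmt, which methylates eEF2, was at 57.4 ± 4.80 and 49.5 ± 7.39 CPM (edgeR, adjusted p = 0.71), with 23.0% of its exons shared with Alg1. Across the 6 tested genes of this kind the median change was -0.17. Eef1akmt4, which methylates eEF1A, had the highest value of any factor, 1.49 (SE 0.66; edgeR, adjusted p = 0.342), but its libraries ranged from 1.07 to 11.6 CPM and from 8.91 to 32.2 CPM, and 31.7% of its exons overlap another gene. It was singled out after its values were seen.

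The balance of Eef2 over its kinase was compared in each library as a log2 ratio. It was 3.34, 3.55, 3.42 and 3.49 in plasma-negative and 3.67, 4.08, 4.07 and 3.95 in plasma-positive libraries. These groups did not overlap, and the difference of 0.49 had an exact permutation p of 0.0286 (two-sided, n = 4 per group), the smallest that the 70 splits allow. With the length and GC correction the fitted changes of Eef2 and Eef2k were 0.20 and -0.05, which differ by 0.25. Eef2 with Eef2k was 1 of 10 such pairs of related factors, chosen with results of these data known. In the exact permutation test, its p adjusted over the 10 pairs was 0.25. With 0.0286 as the smallest possible p, 1 pair alone could not reach an adjusted p under 0.05, whatever its values. The other 9 pairs, among them Eif4a1 with Eif4a2, Eif4g1 with Eif4g2 and Eif1 with Eif1b, had adjusted p between 0.25 and 0.771 by the same exact permutation test.

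The ratio of summed Eef CPM to summed Eif CPM was 0.707, 0.658, 0.728 and 0.700 in plasma-negative and 0.795, 0.776, 0.745 and 0.835 in plasma-positive libraries. The highest plasma-negative and the lowest plasma-positive library were close but did not overlap. Without Eef1a1 the ratio was 0.325 to 0.387 in plasma-negative and 0.356 to 0.377 in plasma-positive libraries, and the groups overlapped fully. With genes sorted by role, so that Eif5a and Eif5a2 count as elongation and kinases, binding proteins and methyltransferases are left out, it was 0.763 to 0.832 and 0.890 to 1.0. By role the median change was 0.44 over the 7 tested elongation factors (7 above 0, with TMM as with the 3 other scalings tried), 0.26 over the 39 tested initiation factors (31 above 0, or 23 with totals only) and -0.08 over the 14 tested regulators (6 above 0). With the length and GC correction these medians were 0.20, 0.14 and -0.11, so the elongation and initiation factors lay closer together. No test was made of these sums and medians, since the genes were chosen with results known.

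**Figure D3:**
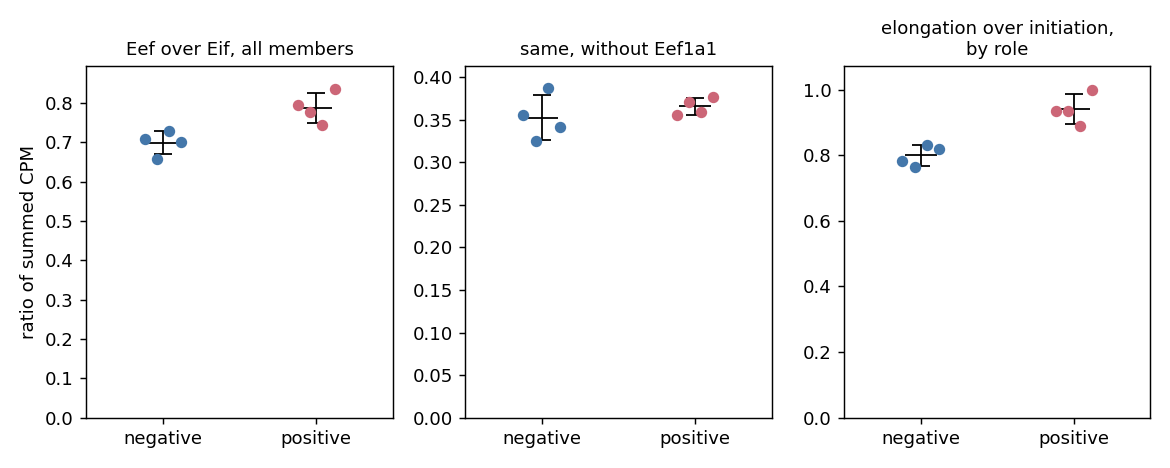
Each panel gives a ratio of summed CPM (y axis, from 0) in the 4 plasma-negative and 4 plasma-positive libraries with the mean and SD: all Eef over all Eif genes, the same without Eef1a1, and elongation over initiation factors sorted by role. The groups are apart in the first and last panel (0.658 to 0.728 against 0.745 to 0.835, and 0.763 to 0.832 against 0.890 to 1.0) and overlap in the middle one.

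Among the initiation factors, edgeR called 1 gene, a subunit of the eIF3 complex, the scaffold on which the initiating ribosome is assembled. Eif3b (ENSMUSG00000056076, chromosome 5, 140419328 to 140443360, plus strand), an RNA-binding core subunit, was at 87.2, 90.5, 99.3 and 123 CPM in plasma-negative and 198, 173, 148 and 176 CPM in plasma-positive libraries. The groups did not overlap. Its mean rose 1.74-fold, from 100 ± 16.4 CPM to 174 ± 20.6 CPM (SD, n = 4), or by 0.80 on the log2 scale (SE 0.15; edgeR, adjusted p = 0.0266). The call was kept without plasma-negative replicate 4 (adjusted p = 0.0187) or plasma-positive replicate 3 (adjusted p = 0.0395) and lost in the 6 other edgeR fits that left out a library, where adjusted p was up to 0.0924. With the length and GC correction the change was 0.62 (edgeR, adjusted p = 0.137).

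Of the 13 tested eIF3 subunits 11 had a log2 change above 0 (10 with library totals only), with a median of 0.32, and their summed level was 1240 to 1390 CPM in plasma-negative and 1540 to 1650 CPM in plasma-positive libraries. Eif3k, a small peripheral subunit, was at 111 ± 21 and 149 ± 10.8 CPM (SD, n = 4), a change of 0.42 (edgeR, adjusted p = 0.234), and Eif3e, a scaffold subunit, at 88.3 ± 28.6 and 125 ± 14.7 CPM, a change of 0.52 (edgeR, adjusted p = 0.297). Eif3f, Eif3g and Eif3h, which are among the most abundant factors per kilobase, had changes of 0.39, 0.30 and 0.32 (edgeR, adjusted p = 0.344, 0.496 and 0.394). With the length and GC correction these 3 were at 0.20, 0.04 and 0.04, and the median of the 13 subunits was 0.17. Apart from Eif3b, none of the 13 subunits passed the test, and 43.3% of the exons of Eif3d overlap Gm17638.

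Eif3a, the largest core subunit, which binds Eif3b in the assembled complex, was the lowest of the 13. Its level was 118, 184, 171 and 183 CPM in plasma-negative and 98.8, 55.2, 152 and 102 CPM in plasma-positive libraries. The groups overlapped, since plasma-positive replicate 3 stood above plasma-negative replicate 1. Its log2 change of -0.69 (SE 0.26) had an unadjusted p of 0.0228 and did not pass after adjustment (edgeR, adjusted p = 0.258). Its exons span 8.73 kb, against 3.35 kb for Eif3b, and with the length and GC correction the change was -0.52 (edgeR, adjusted p = 0.488). Eif3j1 was at 10.3 ± 2.71 and 8.86 ± 1.86 CPM (SD, n = 4; edgeR, adjusted p = 0.896), and its near-identical copy Eif3j2 had too few reads for a test, so that the split of reads between them is uncertain.

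**Figure D4:**
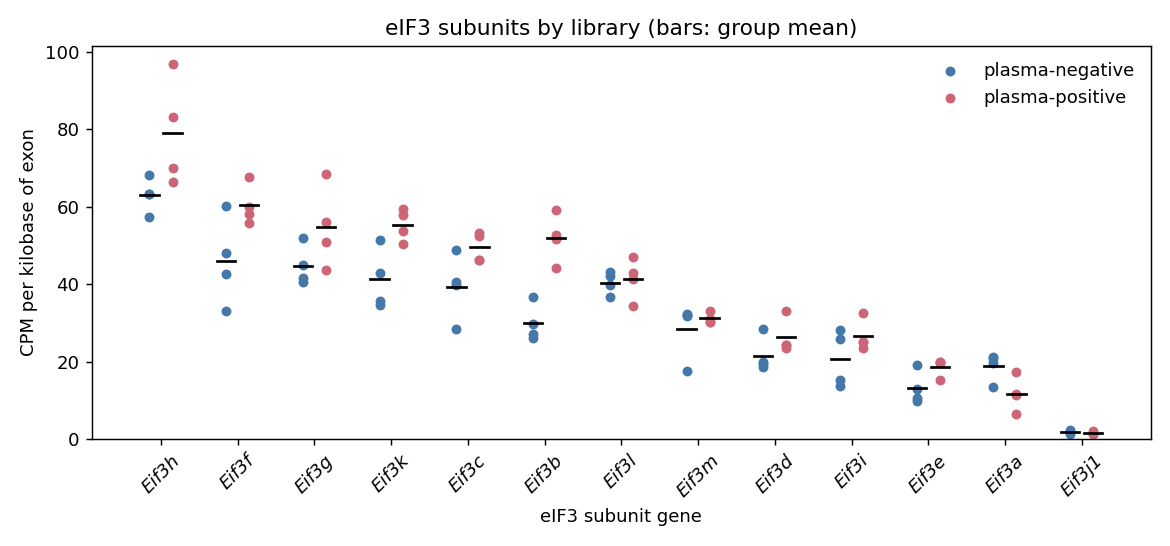
CPM per kilobase of exon (y axis, from 0) is shown for the 13 tested eIF3 subunits (x axis, in order of level) in the 4 plasma-negative and 4 plasma-positive libraries, with a bar at each group mean. Eif3b is the subunit whose groups are apart (29.9 ± 4.90 against 52.0 ± 6.16, SD, n = 4). Eif3a and Eif3j1 have lower means in plasma-positive than in plasma-negative libraries (11.7 against 18.8, and 1.52 against 1.77).

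Of the 5 factors that choose the start codon 0 were called, and their log2 changes lay between 0.09 and 0.90, though those of Eif1 and Eif5 were -0.02 and -0.03 with library totals only, and that of Eif1 was -0.14 with the length and GC correction. Eif1ax, the X-linked eIF1A gene, was at 14.7, 19.4, 37.7 and 32.3 CPM in plasma-negative and 55.0, 41.3, 47.5 and 49.7 CPM in plasma-positive libraries, groups that did not overlap. Its log2 change of 0.90 (SE 0.31) did not pass (edgeR, adjusted p = 0.202) and was 0.91 with the length and GC correction. Eif1b, a form of the scanning factor eIF1, was at 61.9 ± 26.8 and 84.2 ± 7.20 CPM (SD, n = 4; edgeR, adjusted p = 0.498), with plasma-negative replicate 4 at 98.3 CPM above every plasma-positive library. Eif1 itself, at 58.0 ± 5.83 and 61.9 ± 1.72 CPM, and Eif5, the GTPase activator of eIF2, at 175 ± 21.7 and 186 ± 30.4 CPM did not pass the test (edgeR, adjusted p = 0.875 and 0.869). For subunit joining, the GTPase gene Eif5b was at 70.5 ± 8.85 and 58.4 ± 11.9 CPM and Eif6, which keeps the subunits apart, at 81.3 ± 14.8 and 97.5 ± 11 CPM (edgeR, adjusted p = 0.615 and 0.568).

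Delivery of the initiator tRNA showed no call either. Eif2s1, the alpha subunit of eIF2 and the target of the stress kinases, was at 75.6 ± 24.7 and 80.8 ± 12.8 CPM, and Eif2s2, the beta subunit, at 35.5 ± 8.63 and 29.1 ± 5.03 CPM (SD, n = 4; edgeR, adjusted p = 0.899 and 0.714). Eif2a, which encodes a separate tRNA-binding factor and not the alpha subunit despite its symbol, had 33.4, 30.1, 36.0 and 43.7 CPM in plasma-negative and 56.4, 46.7, 67.2 and 44.1 CPM in plasma-positive libraries. These groups touched without overlapping, and the log2 change was 0.59 (SE 0.23; edgeR, adjusted p = 0.259). The 5 subunits of eIF2B, which recharges eIF2 with GTP, had a median change of 0.10 within a range of 0.08 to 0.35, and 0 were called by edgeR or DESeq2. With library totals only 3 of the 5 lay below 0, and with the length and GC correction also 3 (Eif2b1, Eif2b2 and Eif2b5), with a median of -0.04.

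In the cap-binding and helicase group the 10 tested genes had a median change of 0.17, with 6 above 0 (5 with totals only) and 0 called by edgeR. Eif4h, a stimulator of the helicase singled out after its values were seen, was at 229, 223, 189 and 244 CPM in plasma-negative and 281, 321, 277 and 260 CPM in plasma-positive libraries without overlap, a change of 0.36 (SE 0.12; edgeR, adjusted p = 0.171). DESeq2 called this gene, close to the threshold (adjusted p = 0.049). Eif4g1, the main eIF4G scaffold, had the lowest value of the group, with 126, 99.1, 120 and 51.1 CPM against 55.8, 75.3, 81.2 and 71.5 CPM. Plasma-negative replicate 4 lay below all other libraries there, and the log2 change of -0.49 (SE 0.25) did not pass (edgeR, adjusted p = 0.435). Eif4g2, a related scaffold that acts without eIF4E, was at 138 ± 30.9 and 169 ± 13.3 CPM and Eif4g3 at 71.7 ± 17.7 and 70.0 ± 8.35 CPM (SD, n = 4; edgeR, adjusted p = 0.484 and 0.96).

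The helicase genes Eif4a1 (40.7 ± 4.88 and 43.2 ± 6.03 CPM) and Eif4a2 (60.2 ± 10.6 and 57.6 ± 8.46 CPM) did not pass the test, nor did the cap-binding gene Eif4e (30.3 ± 10.8 and 35.8 ± 4.81 CPM; SD, n = 4; edgeR, adjusted p = 0.919, 0.933 and 0.784). Among the genes whose products sequester eIF4E, Eif4ebp1, a target of mTORC1, was at 60.1 ± 20.1 and 59.9 ± 9.38 CPM. Eif4ebp2, the form known from brain, was at 29.8 ± 5.49 and 40.6 ± 5.68 CPM (SD, n = 4), and neither passed (edgeR, adjusted p = 0.996 and 0.462).

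The 4 eIF2 kinases, which turn initiation down under stress, had values in both directions and 0 calls. Eif2ak3 (PERK, the kinase of endoplasmic reticulum stress) was at 10.5, 17.9, 23.3 and 19.2 CPM in plasma-negative and 31.8, 33.3, 27.7 and 25.6 CPM in plasma-positive libraries. Those groups did not overlap, and its log2 change was 0.74 (SE 0.31; edgeR, adjusted p = 0.319). Eif2ak4 (GCN2, the kinase of amino acid shortage) was at 14.7 ± 6.40 and 9.99 ± 2.81 CPM, a change of -0.57 (edgeR, adjusted p = 0.659). Eif2ak1 (HRI, linked to haem) was at 76.8 ± 19.0 and 83.2 ± 8.18 CPM, and Eif2ak2 (PKR, activated by double-stranded RNA) at 20.5 ± 4.82 and 18 ± 5.84 CPM (SD, n = 4; edgeR, adjusted p = 0.87 and 0.889). Phosphorylation of eIF2 was not measured.

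Among the genes that carry a factor's name for other work, Eif1ad was at 22.1, 25.1, 32.4 and 13.8 CPM in plasma-negative and 38.2, 46.7, 33.7 and 42.9 CPM in plasma-positive libraries, a log2 change of 0.78 without overlap (SE 0.29; edgeR, adjusted p = 0.249). Of its exons 15.3% overlap Banf1. Eif4a3, a core protein of the exon junction complex, and Eef1e1, an accessory protein of the tRNA synthetase complex, had changes of 0.06 and 0.12 (edgeR, adjusted p = 0.941 and 0.881). The factors not tested, besides Eef1a2 and Eif3j2, were Eif4e1b and Eif2c5, with 0 counts in all 8 libraries, and Eef1akmt3, with counts in plasma-positive replicate 4 alone. Eif2c5 is a non-coding gene with an old argonaute-type name.

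Genes that work beside the factors were read from the same fit, in which 1.41% of all tested genes were called, 0.844% higher. At that share, short lists often hold 0 calls. Cytosolic ribosomal proteins had 6 of 79 tested genes called, all higher (Rpl4 and Rps3 among them), and a median change of 0.39, or 0.15 with the length and GC correction. Termination and recycling factors had 1 of 11, Abcf3, at 28 and 57.8 CPM (log2 change 1.05, SE 0.21; edgeR, adjusted p = 0.0335), with a median of 0.40, or 0.17 with that correction, while Etf1, the release factor, was at 57.3 and 76.4 CPM (adjusted p = 0.484). Neither the 14 genes of mTORC1 signalling (median 0.11, or 0.07 with that correction) nor the 9 that bind poly(A) tails or TOP mRNAs (median -0.04, or 0.05 with that correction) held a call.

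The list of targets of the integrated stress response and subunits of its eIF2 phosphatase (Ppp1r15a and Ppp1r15b) held 13 tested entries, with Ddit3 present under 2 gene identifiers. Of these 0 were called, 11 had a log2 change below 0, and the median was -0.19, or -0.44 with the length and GC correction. Atf4, its main transcription factor, was at 141, 91.4, 94.8 and 74.4 CPM in plasma-negative and 85.8, 65.1, 50.4 and 48.0 CPM in plasma-positive libraries, which overlapped (log2 change -0.69; edgeR, adjusted p = 0.217). Trib3, a target of ATF4, was at 6.24, 2.14, 6.05 and 12.1 CPM against 0, 0, 0 and 1.23 CPM (edgeR, adjusted p = 0.221). The 22 genes for cytosolic aminoacyl-tRNA synthetases and the accessory proteins Aimp1 and Aimp2 had a median of -0.00, or 0.01 with that correction. The 10 mitochondrial translation factors had a median of 0.12, or 0.24 (0.235) with it. For the 8 enzymes that make hypusine or diphthamide the 2 medians were -0.12 and -0.18, and for the 3 selenocysteine genes 0.07 and -0.06. None of these lists held a call, beside 1.41% of all tested genes.

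Exon length was looked at because it moved with the change across all genes. Across the 63 tested factors, which are not independent replicates, the Spearman correlation of log2 change with exon length was -0.16, and across 13276 tested genes -0.13. In the 21 factors with the shortest exons (744 to 2678 bases) the median change was 0.16, in the next 21 it was 0.33, and in the 21 longest (5784 to 11063 bases) 0.09, with 17, 19 and 11 above 0. After the correction the correlation across the 63 factors was 0.21, opposite in sign, and these medians were 0.04, 0.20 and 0.16 in the same order. No test was made of these values. Among the factors discussed above, the correction lowered the changes of Eef1a1, Eef2, Eif5a and Eif3b, left that of Eif1ax at 0.91 and gave Eef1d 0.54.

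**Figure D5:**
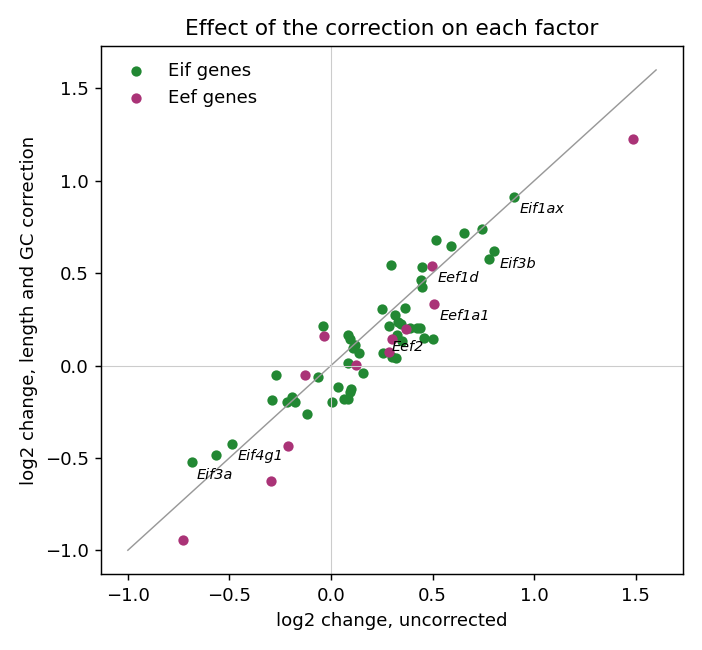
Each point is a tested factor, with its log2 change as fitted on the x axis and after the correction for exon length and GC content on the y axis, and the line marks equal values. Eef1a1, Eef2 and Eif3b lie below the line (0.33, 0.20 and 0.62 after correction), and 42 of the 63 points are above 0 after it, 40 of them also as fitted.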

How the data were processed

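RNA was extracted with an RNeasy Plus Micro kit and made into Smart-seq2 libraries, a full-length protocol without molecular identifiers, per the labels' protocols. The submitters' processing notes name bcl2fastq, Trim Galore, STAR, HTSeq and build mm10, while versions, strand setting and the treatment of reads with several matches are not given in the sources used here. The main deposited table gives, for each gene and library, a read count from top-hit alignments, per the file headers. A second deposited table holds RPKM values of the same genes, per the file headers, and was used for alternatives only. Its 16 columns of standard deviations were not used. Of the gene identifiers, 35546 of 35583 were in GENCODE M21, which gave exon lengths, GC content and overlaps, and all 68 members had the same start and end there.

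The test was edgeR's (version 4.0.16, R 4.3.3; TMM factors, default expression filter by group, quasi-likelihood F test of group alone, Benjamini-Hochberg over all tested genes, called under 0.05). CPM values are counts scaled with these factors. Depth limits the smallest values: 3 counts, the floor for detection, correspond to 0.14 to 1.01 CPM, which covers counting error only. The correction for exon length and GC content is a loess curve (span 0.3) per library, fitted on genes of at least 30 CPM. Other alternatives were scaling by totals only, upper quartile or relative log expression, other filters, DESeq2 1.42.0, limma-voom and limma 3.58.1 on log2(RPKM + 1) and log2(RPKM + 0.1), the replicate number as a block, thinning to the smallest total, and leaving out each library. Pairs of factors were compared by exact permutation over libraries.

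The members, lists, pairs and alternatives were chosen with earlier results of these data known. Members named with values are those called, the 8 most abundant by CPM per kilobase (the rule was written for RPKM), the 6 largest and 6 smallest changes at or above 30 CPM, and a fixed list of factors. Eif4h, Eef1akmt4, Eif2c5, Eif4a3, Eef1e1 and other members outside this rule were named after their values were seen. Sequences are RefSeq's for GRCm38.p6.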

Additional observations from a re-analysis of the deposited data

Results flagged for a closer look

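In 4 of 80 groups of 4 libraries checked, a factor's level in 1 library lay far from the other 3, measured by its gap to the nearest of them relative to the range of the group. Chance gives about 5% of groups. Eef1d was at 88.0 CPM in plasma-negative replicate 3, where the nearest other library was at 99.8 CPM. Eif2s1 was at 112 CPM in plasma-negative replicate 4, the library with the fewest counts, against 66.6 CPM in the nearest. Eif3e was at 103 CPM in plasma-positive replicate 4, against 131 CPM in the nearest, and so lay inside the plasma-negative range. Eif4g3 was at 57.5 CPM in plasma-positive replicate 3, against 72.9 CPM in the nearest. None of these 4 genes was called by edgeR. DESeq2 called Eef1d, and without plasma-negative replicate 3 its log2 change in edgeR was 0.45 (adjusted p = 0.173).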

How the results depend on the processing

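Against 187 genes and 3 members called, the length and GC correction gave 66 genes (43 higher, 23 lower) and 1 member, Eef1a1, DESeq2 963 genes (6.43% of 14980) and 6 members (Eef1a1, Eef1d, Eef2, Eif3b, Eif4h and Eif5a), limma on log2(RPKM + 1) 447 genes (388 higher, 59 lower) and on log2(RPKM + 0.1) 432 genes (370 higher, 62 lower), with 4 members in both. Library totals only turned the split to 64 higher and 163 lower, with the median of all genes at -0.11, against 0.11 and 0.16 with the 2 RPKM scalings. Leaving out a library gave 66 to 203 genes and 1 to 2 members, with medians of 0.19 to 0.27 for Eif and 0.14 to 0.28 for Eef genes. The fewest genes were called without plasma-negative replicate 3, and fits without any other library but plasma-negative replicate 4 also gave under 100. The replicate block gave 74 genes (52 higher, 22 lower) and 1 member, Eef1a1, and together with the length and GC correction 10 genes and 0 members, where Eef1a1 had an adjusted p of 0.0892 in edgeR. Deviations from the group mean correlated across genes at 0.0119, 0.0126, 0.0109 and 0.0315 between libraries of equal number. The mean for different numbers was -0.00556. Values this near 0 cannot show whether libraries of equal number share an animal, which the labels do not say. The median of the Eif genes was 0.14 with totals only, with the length and GC correction and with that correction and the block, 0.34 (0.335) and 0.41 (0.406) on the RPKM scalings, and that of the Eef genes 0.44 when sorted by role. The cause of these differences was not tested.

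For the 38 named and tested genes, 736 of 797 values under alternatives kept their direction and side of the threshold. Of the others, 24 lost a call (Eef2 14, Eif3b 9, Eef1a1 1), 4 gained one (Eif5a 3, Eef1d 1), and 33 changed sign, all in genes that were not called. With totals only, Eif1 was at -0.02, Eif2s1 at -0.00 (-0.002), Eif4a1 at -0.033, Eif4ebp1 at -0.11 and Eif5 at -0.029. On RPKM with a pseudocount of 1 and 0.1, Eef2k was at 0.00 (0.002) in both, Eif4a2 at 0.060 and 0.067, and Eif4g3 at 0.092 and 0.11. With the length and GC correction, without and with the replicate block, Eif1 was at -0.14 (-0.145) and -0.14, Eif4ebp1 at -0.20 and -0.16, and Eif4g3 at 0.21 and 0.23. Eif4ebp1 was also at -0.02 with relative log expression (-0.022) and with DESeq2 (-0.021), -0.01 (-0.009) with a mean count of at least 50, and -0.11 when thinned, where Eif4a2 was at 0.01 (0.013). Over the fits that left out a library, Eif2ak1 ranged from -0.01 (-0.013) to 0.28, Eif2s1 from -0.00 (-0.003) to 0.35, Eif4a2 from -0.14 to 0.07 (0.065), Eif4ebp1 from -0.16 to 0.19 and Eif4g3 from -0.15 to 0.13.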
